A study of Mus musculus with 2 samples.

Results

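The cytosolic ribosomal protein genes were examined for binding of CTCF at their promoters in newborn mouse hindbrain. They were chosen by symbol from the GENCODE vM21 annotation of mm10. Protein-coding genes named Rpl or Rps plus a number, with at most a short letter suffix, were joined by Rplp0, Rplp1, Rplp2 and Rpsa. This gave 84 of 21938 protein-coding genes on the assembled chromosomes, 52 of the large (60S) and 32 of the small (40S) subunit. CTCF was mapped by ChIP-seq, in which an antibody recovers DNA bound by the protein, in hindbrain of B6NCrl mice at an age of 0 days. The tissue was pulverised and pooled over several dissections, the sex of the pups was not recorded, and no genetic change or treatment is named. The only group had 2 libraries. Their labels number them as separate biological replicates but name the same tissue sample for both, so their spread may be technical. The files hold peaks and no read counts, so the depth is unknown here, and no RNA was measured by which the tissue could be checked against its markers.

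Ribosomes are built from ribosomal RNA and ribosomal proteins in fixed proportions, so their genes are expressed together and at high levels in growing and neuronal cells. Their promoters are short, mostly rich in CpG, and many of the transcripts begin with a run of pyrimidines that ties their translation to growth signals. CTCF is a zinc finger protein that recognises a long GC-rich core, stops cohesin at loop boundaries, and also binds close to many active promoters. A gene was called occupied when a peak of the optimal set lay with its summit within 1 kb of any annotated start site. The optimal set holds the 62686 peaks that the authors kept by IDR (irreproducible discovery rate), which scores whether a peak keeps its rank between lists. Their conservative IDR set holds 59979 peaks, and the lists compared for each set are not named here. The signal of a peak is the peak caller's own score, given by the authors on a scale with no stated unit, and is used here to rank and describe peaks. The pooled list of 251251 peaks, called on both libraries together, gives the same signal for all 62686 optimal peaks to within 0.001%.

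The cores under the strongest promoter peaks are shown first, because 11 of the 12 strongest members carried one, of which 9 are printed. Each line gives 30 bases of the reference genome (GRCm38, the assembly of mm10), 5′ to 3′ on the strand of the core. Bases 9 to 22 are the core. Capitals mark the core bases that match the 14-base CTCF consensus, and lower-case letters within the core mark mismatches.
Rpl26, chr11:68901457-68901486, plus strand: cctccgagCCgCTAGATGtCGCtaaactcc
Rps3a1, chr3:86142686-86142715, plus strand: atctcgcgaCACTAGcTGGCGGctcgtttc
Rpl5, chr5:107900457-107900486, plus strand: tcctcctaCCgGCAGGGGGCGatagcccgc
Rplp0, chr5:115559282-115559311, plus strand: gctccgacCCAGCAGAGGGCAGcaggtctg
Rpl11, chr4:136053472-136053501, minus strand: aggacagtCCACTAGAGGtgGCagcgccac
Rpl36, chr17:56613320-56613349, plus strand: acctccggCCACCAGAGGtCGCccgcagcg
Rpl27, chr11:101442118-101442147, minus strand: ctactctgCCACTAGGaGGaGGacagagtc
Rps24, chr14:24487118-24487147, minus strand: tgaaggagCCgCTAGATGGCGatctagaag
Rpl38, chr11:114668450-114668479, plus strand: aatctgaaCCAGaAGAGGGCAGggctgctg
Of these, only the Rplp0 core matched the consensus at every base. Rpl36 and Rpl38 had 1 mismatch and the other 6 had 2. Rps14, also among the 12 strongest, had 5 mismatches at its best position.

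More than 6 in 10 ribosomal protein genes were occupied. A peak lay at 52 of 84 members (61.9%, Wilson interval 51.2 to 71.6), against 39.8% of all protein-coding genes. Members are mostly CpG-rich, with 76 of 84 above a CpG ratio (observed over expected CpG) of 0.6 in 1001 bp around the 5′ end. Of these 76, 48 (63.2%, interval 51.9 to 73.1) were occupied, against 58.1% of all coding genes above that ratio, a share inside the interval of the members. Of the 8 members at or below the ratio, 4 were occupied. Among these, Rps14 (ratio 0.172) and Rps2 (0.146) lost their call when only the 5′ end was used. The ratio was not measured at the other starts, near which their peaks lay. Members also had more annotated start sites, with a median of 6 against 3 over all coding genes, and each further site adds sequence in which a peak can be counted. With single libraries, taking as many of the strongest peaks as the optimal set holds, 54 members were occupied in replicate 1 (background 40.8%) and 55 in replicate 2 (background 40.4%). With the 5′ end alone the share was 58.3% (49 members), against a background of 31.8%. These shares count genes as independent and cover counting error only, and no test was made, since genes are not replicates of a condition.

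Where a promoter peak was present, it was often strong. The strongest peak of the 52 occupied members had a median signal of 119.8, with quartiles of 58.0 and 322.7. Over the 8734 occupied coding genes the median was 75.4 (quartiles 39.3 and 181.6). Among occupied members, 33 of 52 were at or above the median signal of all optimal peaks (73.85), against 4430 of 8734 coding genes. The 5000 strongest optimal peaks reached 11 members (13.1%), against a background of 3.17% over all coding genes and 4.12% over those above the CpG ratio. That limit was chosen after the values were seen. The plot of signal by gene shows that members cover the range without a step between weak and strong promoters.

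**Figure D1:**
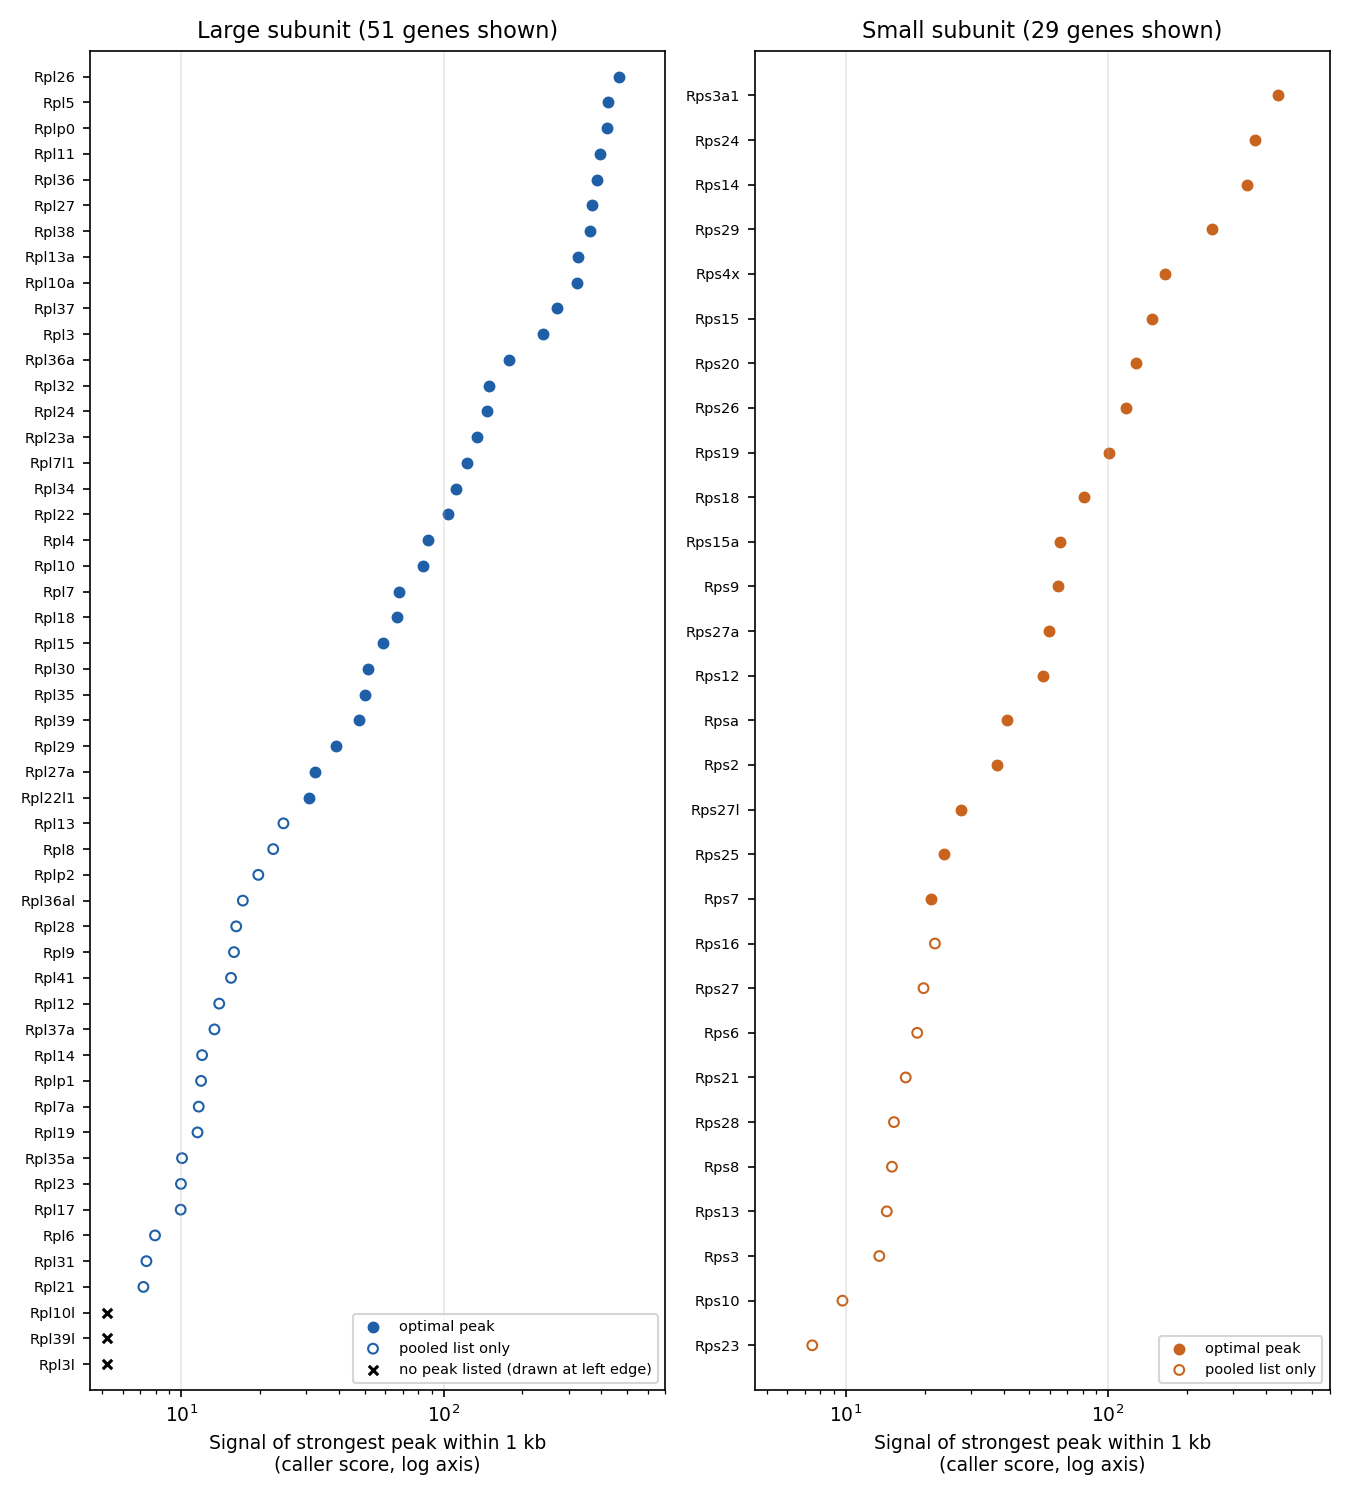
Signal of the strongest CTCF peak within 1 kb of a start site (x axis, caller score on a log scale) for 51 large and 29 small subunit genes (rows). Filled points are optimal peaks (29 large and 19 small), open points are genes with a peak in the pooled list alone (29), and crosses are the 3 genes with no listed peak.

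The strongest peak stood at Rpl26, a large subunit protein next to the exit of the tunnel through which new proteins leave (ENSMUSG00000060938.14, peak chr11:68901327-68901635). Its signal was 468.3 in the pooled data, 262.5 in the list of replicate 1 and 207.4 in that of replicate 2, where it ranked 662 and 646. The summit lay 115 bp upstream of the nearest start site. Rps3a1, a protein of the platform of the small subunit, followed with 444.2 (chr3:86142583-86142875, ranks 1025 and 1219). Its summit lay 42 bp upstream, and the centre of its core was 1.5 bp past the start site. Signals of single libraries are on the scale of their own list, and so only ranks are set side by side. In both libraries Rpl26 ranked above Rps3a1.

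Rpl5 and Rpl11, the proteins that carry 5S ribosomal RNA into the large subunit and that bind Mdm2 when assembly fails, were both strongly bound. Rpl5 had a signal of 422.3 (chr5:107900350-107900614, ranks 1944 and 1213), with the summit 18 bp upstream. At Rpl11 the signal was 396.1 (chr4:136053344-136053625, ranks 2999 and 1985), with the summit 64 bp upstream. Their ranks were closer to the top in replicate 2 for both genes. The stalk of the large subunit, which recruits elongation factors, differed among its members. Rplp0, the base of the stalk, had a signal of 418.2 (chr5:115559167-115559506, ranks 2062 and 1567), 146 bp upstream. Rplp1 and Rplp2, the proteins that attach to it, had no optimal peak, and their best pooled peaks had signals of 11.9 and 19.7.

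Among the other strong members were Rpl36 (385.2), Rpl27 (366.8), Rps24 (364.7), Rpl38 (362.3) and Rps14 (339.2). Rpl38 is known for its part in the translation of Hox transcripts in the mouse embryo, and Rps24 is among the genes mutated in Diamond-Blackfan anaemia. Their summits lay within 250 bp of a start site, that of Rps14 farthest, at -248 bp (negative values are upstream). The Rps24 summit, 11 bp past a start of Rps24, was also 78 bp upstream of a start of Polr3a, a subunit of RNA polymerase III transcribed the opposite way. The Rps14 peak lay inside the annotated gene and was lost as a call when only the 5′ end was used.

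The large and the small subunit were then compared. Of 52 large subunit genes 30 were occupied (57.7%, Wilson interval 44.2 to 70.1), and of 32 small subunit genes 22 (68.8%, interval 51.4 to 82.0), each beside the background of 39.8%. The difference, large minus small, was -11.1 percentage points with a Newcombe interval from -30.0 to 10.3. The interval includes 0, so no difference in either direction was resolved. The difference was -0.962 points in the conservative IDR set, -5.29 without replicate 1 and -7.21 without replicate 2. Without the paralogues the shares were 60.9% of 46 and 67.7% of 31, a difference of -6.87 points (interval -26.7 to 14.9). The sign of the difference turned among the 31343 strongest optimal peaks, where 21 large (40.4%) and 12 small subunit genes (37.5%) were occupied, against a background of 20.2%.

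Median signal was 140.3 over the 30 occupied large subunit genes (lowest 30.7, highest 468.3) and 90.9 over the 22 occupied small subunit genes (lowest 21.1, highest 444.2). The quartiles were 66.9 and 353.2 for the large subunit and 46.8 and 228.1 for the small, so the distributions overlapped over most of their range. In the conservative set the medians were 128.3 and 108.6. Over the 49 large and 32 small subunit genes with a peak in the pooled list, and so with the weak peaks of unoccupied members counted, they were 51.53 and 50.01, a difference of 1.53. The gap in signal was thus seen among occupied genes and was near 0 over nearly all members. Among the 62686 strongest peaks of a single library, on its own scale, the medians for large and small were 65.4 and 59.1 in replicate 1 and 54.8 and 32.1 in replicate 2.

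Among the proteins in or around the exit tunnel of the large subunit, 6 of 9 were occupied (66.7%, interval 35.4 to 87.9). The share was 61.9% of all members and 39.8% of coding genes. Rpl26 (468.3), Rpl23a (133.7) and Rpl22 (103.6) had the highest signals, and Rpl17, Rpl19 and Rpl31 had no optimal peak. Of the small subunit proteins along the path of the messenger RNA, 6 of 9 were also occupied, the same share, among them Rps14 (339.2), the highest, and Rps15 (147.0). Genes mutated in Diamond-Blackfan anaemia, a failure of red cell formation caused by shortage of a ribosomal protein, were occupied in 13 of 18 (72.2%, interval 49.1 to 87.5). That interval includes the shares of all members (61.9%) and of CpG-rich coding genes (58.1%). Their median signal was 249.0, above the 119.8 of all occupied members, of which they are part. Rpl26, Rpl5 and Rpl11 led them. Rps19, the gene most often mutated in that disease, had a signal of 100.6 at 361 bp upstream, and Rps7 had the lowest of any occupied member, 21.1. These lists overlap and are small, and their shares were not tested against the other members.

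The occupied members with the weakest peaks were Rps7 (21.1), Rps25 (23.6), Rps27l (27.5), Rpl22l1 (30.7) and Rpl27a (32.5). The Rps7 peak ranked 85702 in replicate 1 and 69511 in replicate 2, outside the 62686 strongest of both lists. On the other side of the line, 32 members had no optimal peak, and 29 of these had a peak in the pooled list within 1 kb. Those pooled peaks had signals from 7.18 at Rpl21 to 24.5 at Rpl13, with a median of 13.97. Coding genes with a pooled but no optimal peak (6414, beside 6790 with neither) had a median of 13.6. These genes were not split by CpG ratio. The strongest of the unoccupied members were Rpl13 (24.5), Rpl8 (22.4), Rps16 (21.9), Rps27 (19.8) and Rplp2 (19.7). Their signals overlap those of the weakest occupied members. In the conservative IDR set 52 members were also occupied (61.9%, against a background of 38.5%), of which 49 were the same. That set lacked Rpl15, Rps7 and Rps27l and held Rpl8, Rpl13 and Rplp2 in their place.

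With the pooled list, 81 of 84 members had a peak within 1 kb, against a background of 69.0% over all coding genes and 94.8% over those above the CpG ratio. The 3 without one were Rpl3l, Rpl10l and Rpl39l. Rpl3l replaces Rpl3 in heart and skeletal muscle, and Rpl10l and Rpl39l replace their X-linked parents in male germ cells. The nearest optimal peak was 3320 bp from Rpl3l (signal 486.3), 24450 bp from Rpl10l and 81309 bp from Rpl39l. Of the other paralogues, Rpl7l1 (123.0), Rpl22l1 (30.7) and Rps27l (27.5) were occupied, and Rpl36al had a pooled signal of 17.2. Among the parent genes Rpl3 was at 238.8, Rpl36a at 178.2, Rpl22 at 103.6, Rpl10 at 83.7, Rpl7 at 67.9 and Rpl39 at 47.8, and Rps27 was unoccupied. All 77 members that are not paralogues had at least a pooled peak.

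The distance of 1 kb set some of these calls. Rps15 has a weak peak just inside it, 991 bp from a start site (signal 25.3), in addition to the peak 89 bp upstream. Just outside, Rps16 had its nearest optimal peak at 1054 bp (signal 25.8), Rpl7a at 1218 bp (44.8), Rpl14 at 1273 bp (146.7), Rpl41 at 1347 bp (159.9) and Rpl23 at 1410 bp (101.6). In all, 11 of the 32 unoccupied members had an optimal peak within 2.5 kb. With that limit 63 members (75.0%) were occupied, against a background of 49.2%. Among all 32 the median distance to the nearest optimal peak was 3993 bp.

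The promoter peaks of members lay mostly on the upstream side. None of the 71 optimal peaks at member promoters was shared between members. Of these, 51 (71.8%) had their summit upstream of the nearest start site of the member. All 11076 peaks at coding promoters, measured from the nearest start of any coding gene, gave 55.8%. By that rule a peak of Rpl4 at -587 bp would count as downstream, being 91 bp past a start of Zwilch. So would the Rps25 peak at -163 bp (103 bp past a start of Trappc4). A peak of Rpl3 at 616 bp would turn to upstream (82 bp before a start of Syngr1). The strongest peak of each gene was upstream in 42 of 52 members (80.8%), against 59.2% of 8734 coding genes. The commonest interval was the 100 bp just before the start, with 20 of 71 peaks (28.2%, against 18.5% of all). The stretch from 200 to 1000 bp past the start held 10. For the strongest peaks the median position was -93.5 bp, and over coding genes -45 bp. By annotation, 37 of the 71 summits lay outside the gene on its upstream side, 19 in an exon and 15 in an intron of the gene.

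**Figure D2:**
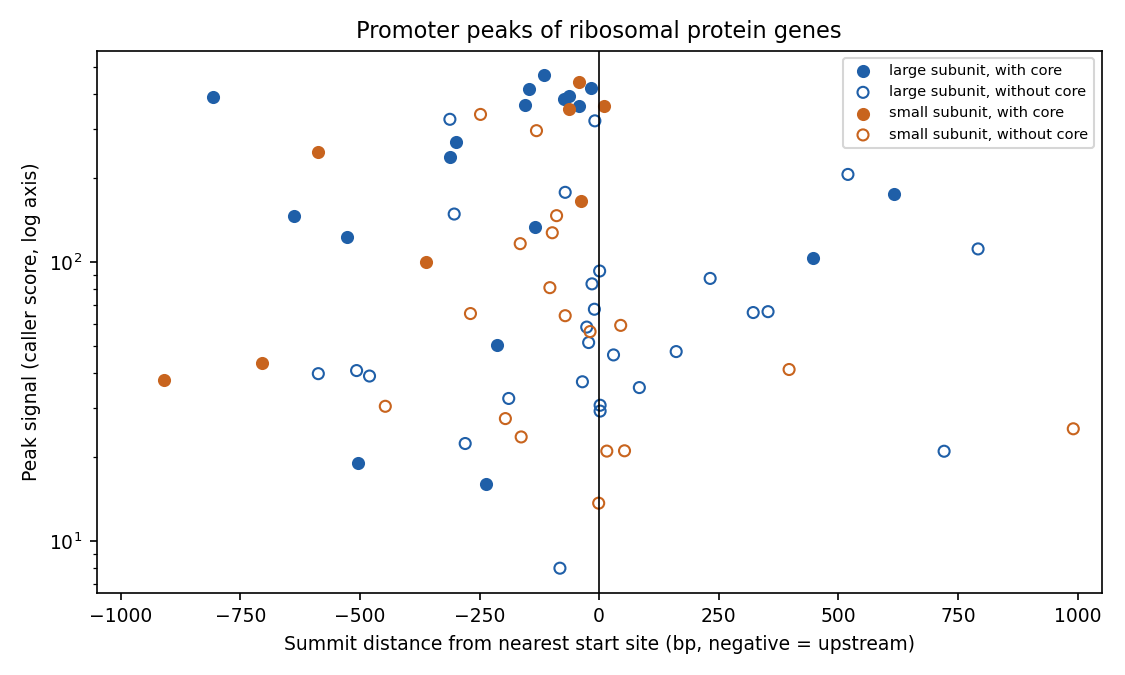
Summit distance from the nearest start site of the gene (x axis, bp, negative upstream) and signal (y axis, caller score on a log scale) of the 71 promoter peaks. Filled points carry a CTCF core with at most 2 mismatches (26 peaks) and open points do not, and 51 of the peaks lie left of the line that marks the start.

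A CTCF core, allowing up to 2 mismatches, was found in 26 of the 71 peaks at up to 50 bp from the summit (36.6%, Wilson interval 26.4 to 48.2). All peaks at coding promoters gave 42.9%, inside that interval. Median signal was 243.9 in the 26 peaks with the core and 56.4 in the others (112.2 and 43.9 over coding promoters). All peaks at coding promoters were split into 4 sets of 2769 by signal, at 33.4, 59.1 and 144.4. In the strongest set 17 of 25 member peaks (68.0%) held the core, against 73.1% of all. In the next set it was 4 of 17 (23.5%, interval 9.56 to 47.3), against 46.8%, and in the lower sets 3 of 14 (21.4%, against 31.8%) and 2 of 15 (13.3%, against 555 of 2769). The share of all peaks lay inside the interval of the members in each set. The core pointed along transcription in 15 of 26 peaks (57.7%) and against it in 11. At all coding promoters it pointed along in 2438 of 4629 (52.7%), leaving out best matches tied between strands. Direction was read there against the gene of the nearest start, and in member peaks against the member.

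Rpl3, one of the largest proteins of the large subunit, had an exact match besides Rplp0, 312 bp upstream of a start site, in an intron of the gene. Several strong promoter peaks had no core by this limit. Rps14 (339.2), Rpl13a (325.8) and Rpl10a (321.7) were the strongest, with 5, 3 and 3 mismatches. The best positions of Rpl13a and Rpl10a are printed to show how far they depart from the consensus, with the core again at bases 9 to 22 and matches in capitals.
Rpl13a, chr7:45129043-45129072, minus strand: agccgccatCACTtGATGGgAGtaatggcg
Rpl10a, chr17:28328441-28328470, plus strand: cggtgcagCCgCgtGGTGGCGCccccccag
With a limit of 3 mismatches 63.4% of member peaks had a core, against 73.3% of all peaks at coding promoters, and with a limit of 1 the shares were 12.7% and 18.1%. The letters AAGATGGC, part of the site of the factor YY1, were found on either strand within 50 bp of the summit in 2 of 71 member peaks and 1.27% of all. For CCGGAAG, part of the site of ETS factors, the numbers were 4 of 71 and 3.11%. No member peak had either of these together with the CTCF core. With 2 and 4 such peaks, and a core in only 26 of 71, this does not show that the sites avoid each other. The same count was not made over all peaks at coding promoters.

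Some cores lay in repeat sequence, which the genome file gives in lower case. The cores of Rplp0, Rpl24, Rpl38 and Rps2 were among 5 of 26 in member peaks that were repeat-masked, against 537 of 4757 at all coding promoters. Their signals were 418.2, 146.9, 362.3 and 37.8. The Rps2 peak, at -909 bp, is printed because it was the weakest of these 4 and its core is a common one.
Rps2, chr17:24719174-24719203, minus strand: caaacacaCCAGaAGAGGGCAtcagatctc
Among 62677 optimal peaks outside unplaced sequence, the same 14 bases were the best match in 2212, and in each of the 2212 they were repeat-masked.

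Whole upstream regions are shown for 2 occupied members and 1 unoccupied member, each with no annotated exon in the window. They are the 250 bases before the RefSeq start (GRCm38.p6), 5′ to 3′ along the gene, with any CTCF core of at most 2 mismatches in capitals.
Rplp0, chr5:115559217-115559466, plus strand: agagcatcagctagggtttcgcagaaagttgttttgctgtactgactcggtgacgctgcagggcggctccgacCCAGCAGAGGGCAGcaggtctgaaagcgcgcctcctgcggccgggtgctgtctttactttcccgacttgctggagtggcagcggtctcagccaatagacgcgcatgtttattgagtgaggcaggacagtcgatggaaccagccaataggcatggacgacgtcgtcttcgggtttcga
Rpl26, chr11:68901316-68901565, plus strand: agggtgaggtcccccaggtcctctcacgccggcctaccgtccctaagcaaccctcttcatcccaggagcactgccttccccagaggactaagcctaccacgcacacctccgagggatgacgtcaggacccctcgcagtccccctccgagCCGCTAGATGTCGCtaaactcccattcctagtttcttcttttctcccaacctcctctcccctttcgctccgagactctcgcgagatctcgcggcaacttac
Rpl23, chr11:97782440-97782689, minus strand: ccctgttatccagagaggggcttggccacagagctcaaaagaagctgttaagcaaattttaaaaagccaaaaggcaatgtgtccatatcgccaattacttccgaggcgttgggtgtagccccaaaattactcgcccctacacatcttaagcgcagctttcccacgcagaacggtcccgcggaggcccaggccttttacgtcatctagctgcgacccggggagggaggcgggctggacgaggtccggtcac
At Rpl23, whose pooled signal was 9.98, the best position in the window had 4 mismatches. RefSeq promoters (250 bases before to 50 after the start) were matched for 37 occupied and 27 unoccupied members. A core lay in 10 of 37 occupied members (27.0%, Wilson interval 15.4 to 43.0) and in 2 of 27 unoccupied ones (7.41%, interval 2.06 to 23.4). Over all coding genes with a RefSeq promoter the shares were 27.8% of 6823 occupied and 12.2% of 9699 unoccupied genes, and 18.6% overall.

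Most occupied members had a single promoter peak. There were 38 with 1 and 14 with 2 or more (26.9% of the occupied, against 29.4% of occupied coding genes). Rpl38 had 4, at -507, -42, 520 and 721 bp from a start site, with signals of 40.9, 362.3, 206.7 and 21.0. Rpl3 had 3, spread over 10459 bp since its annotated starts are far apart, with signals of 238.8, 176.3 and 93.1. The peak of 176.3 was also 82 bp upstream of a start of Syngr1, the gene of a synaptic vesicle protein. Rpl18 (66.5, 46.5 and 16.0) and Rpl7 (67.9, 22.4 and 19.1) had 3 as well, each below the median of all optimal peaks (73.85). Among those with 2 were Rpl4, Rpl13a, Rpl22, Rpl36a, Rpl37, Rps2, Rps15, Rps15a and Rps27l. The second summits were often close, at 200 bp in Rps27l, 202 bp in Rpl36a and 218 bp in Rpl37. At Rpl37 both summits lie in the same listed interval, with a signal of 270.4 for the stronger and of 7.99 for the weaker, close to the lowest of the optimal set (7.04). The 19 further peaks had a median signal of 30.4, and 3 of them carried a core.

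Neighbouring genes share some of these sites. In 14 of the 71 peaks the summit was also within 1 kb of a start of another protein-coding gene. The same count was not made over all peaks at coding promoters, so 14 cannot be called many or few. Of the 9 members with a coding gene starting on the opposite strand within 1 kb upstream, 3 were occupied (33.3%, interval 12.1 to 64.6), namely Rps24, Rpl4 and Rps2. Of the other 75, 49 were (65.3%, interval 54.1 to 75.1). Over all coding genes the shares were 59.4% of 1487 with such a neighbour and 38.4% of 20451 without, the first inside the interval of the 9 members. The neighbours were found from the 5′ ends of genes, and the 14 peaks from any annotated start, so the 14 include peaks at members outside the 9. Ribosomal protein genes often carry snoRNA genes in their introns, whose products guide the modification of ribosomal RNA. Of the 30 members that host at least 1 on the same strand, 18 (60.0%) were occupied, and of the 54 without, 34 (63.0%). Over all coding genes it was 52.7% of 279 hosts and 39.6% of the others. The 4 X-linked members, Rpl10, Rpl36a, Rpl39 and Rps4x, were all occupied, with signals of 83.7, 178.2, 47.8 and 165.5. With 4 genes the interval runs from 51.0% to 100%, beside 60.0% of the autosomal members. Over coding genes the shares were 20.9% of 948 on X and 41.0% of those on autosomes. The mix of sexes in the pooled tissue is unknown.

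A pyrimidine tract at the start, taken as a C followed by at least 4 pyrimidines close to an annotated start site, was found in 63 of 84 members (75.0%), against 45.4% of coding genes. Occupancy was 61.9% both with it (39 of 63) and without it (13 of 21), against 48.9% with and 32.3% without over all coding genes. The tract was read at any annotated start, so genes with more starts had more chances to show one. Members had a median of 6 starts, against 3 over all coding genes. Coding genes with a tract had a median of 5, and those without had 2. The part of this in the shares was not tested, and the starts of transcripts were not measured. The signals of members differed in median but overlapped in range. The 13 occupied members without a tract had a median of 249.0 (lowest 116.6, highest 468.3). The 39 with a tract had a median of 81.1 (lowest 21.1, highest 422.3). Over all occupied coding genes the order was the opposite, with medians of 69.4 without and 79.6 with a tract. Members without a tract had a median of 3 annotated starts, against 6 for those with one, and the part of this in the difference was not tested. Several other splits of the members were looked at, by subunit, role list, CpG ratio, snoRNA genes, neighbouring gene and X chromosome, and all were chosen with results of these data known.

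The ranks of member peaks were compared between the libraries. Each library list holds 300000 peaks, so that any overlap is a weak criterion, which all 71 met. Within the 62686 strongest of both lists 61 were overlapped (85.9%, interval 76.0 to 92.2), against 80.0% of all peaks at coding promoters, inside that interval. By overlap a weak summit can take the library peak of a stronger neighbour, as at Rpl37 (signal 7.99, rank 9586 in replicate 1). For the strongest peak of each member, paired with the overlapping library peak of nearest summit, the larger of its 2 ranks was a median of 1.19 times the smaller. Replicate 1 gave the better rank in 23 members and replicate 2 in 29. The widest gaps were at Rpl15 (ranks 30309 and 86081 in replicates 1 and 2) and Rps27l (89564 and 40563). At Rpl15 the gap rests on the pairing, since replicate 2 has a second overlapping peak, of rank 34735, with its summit 185 bp away. Among the 12 strongest members the widest was at Rps24 (4787 and 2504), followed by Rps14 (4021 and 6638). Of the 32 unoccupied members, 27 had a peak within 1 kb in both library lists. The share over unoccupied coding genes was not counted for these long lists. IDR keeps peaks whose ranks repeat between lists, so the 71 peaks were chosen in part for such repeat.

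**Figure D3:**
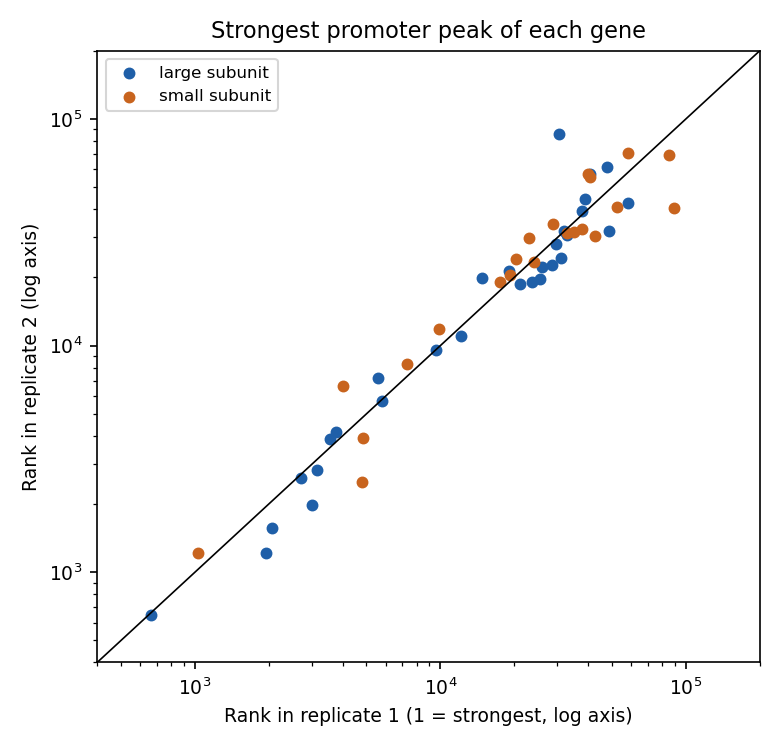
Rank, in replicate 1 (x axis) and replicate 2 (y axis), of the library peak with the nearest summit among those overlapping the strongest promoter peak of each of the 52 occupied members, on log scales with 1 the strongest. The line marks equal ranks, and Rpl15 (30309 and 86081, or 34735 by its other overlapping peak) and Rps27l (89564 and 40563) lie farthest from it.

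Other genes of the translation machinery were set beside the members for scale. Of 78 mitochondrial ribosomal protein genes, which serve the ribosome inside mitochondria, 43 were occupied (55.1%, interval 44.1 to 65.7), which includes the 58.1% of CpG-rich coding genes and the 61.9% of the members. Their median signal was 53.6, against 119.8 in the members. Their strongest peaks, at Mrpl34 (478.0) and Mrps33 (424.5), reached as high as those of the members, and 5 of them (6.41%) had a peak among the 5000 strongest. The next list held translation factors and other genes described as having a pyrimidine tract, which was not counted for this list. Of these genes 12 of 15 were occupied (80.0%, interval 54.8 to 93.0), a higher share than the 61.9% of the members, which lies inside that interval. They had a median of 49.1 and the highest value at the initiation factor gene Eif3f (356.8). Factors of ribosome biogenesis were occupied in 11 of 22 (interval 30.7% to 69.3%, which includes the 39.8% of coding genes), with a median of 301.3. The highest there were Rrp1 (646.4), the polymerase I factor Ubtf (451.8) and Rrp9 (420.8). Of the ribosomal protein genes that the symbol rule leaves out, Fau, which encodes a fusion of a ribosomal protein with a ubiquitin-like protein, and Rack1 had no optimal peak. Their pooled signals were 20.7 and 18.9.

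Annotated pseudogenes of ribosomal proteins, of any pseudogene type, were occupied less often than coding genes. Of 294 with a parent symbol and the suffix -ps, 9 (3.06%, interval 1.62 to 5.71) had an optimal peak within 1 kb, and 35 (11.9%) a peak in the pooled list. The strongest, at Rpl5-ps2, had a signal of 450.4. That interval lies below the 39.8% of all coding genes and below the interval of the members (51.2 to 71.6). The CpG ratio and number of start sites of the pseudogenes were not compared with those of the members. No share was counted over the pseudogenes of other genes, so 3.06% cannot be called low for a pseudogene. How reads that match several near-copies were handled was not named in the sources used here.

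**Figure D4:**
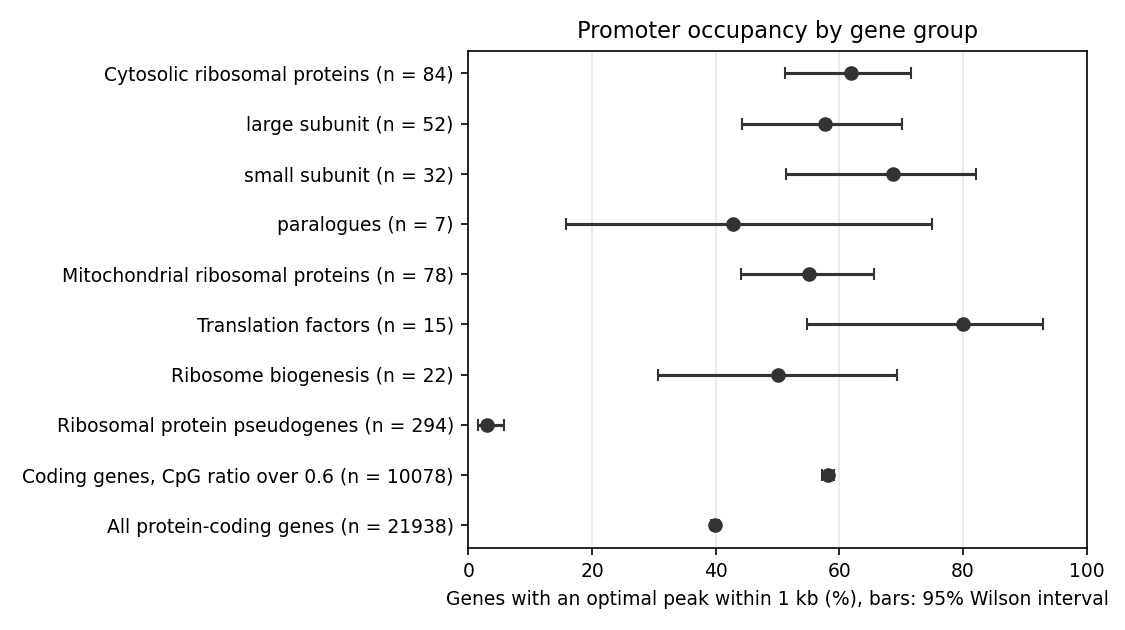
Share of genes with an optimal peak within 1 kb of a start site (x axis, percent) for the members, their subunits and paralogues, and the larger comparison groups (rows, number of genes in brackets). Points are shares and bars 95% Wilson intervals; the members (61.9%) and CpG-rich coding genes (58.1%) lie close together, and the pseudogenes (3.06%) lie lowest of the groups drawn.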

How the data were processed

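Per the deposited file descriptions, the authors called peaks on each library and on both together, with a further file taken as control, and derived the IDR sets from these lists on mm10. The names of the aligner and caller and the IDR threshold were not given in the sources used here, per the labels. The signal and IDR columns are scores made by the authors, and the q value is deposited as −log10 and was not used. Positions came from the deposited summit offsets. Start sites came from GENCODE vM21, sequence from GRCm38.p6. The search for the 14 bp consensus used both strands, 50 bp around summits and at most 2 mismatches. The members and lists were chosen with earlier results of these data known. Named are the 12 strongest and 5 weakest occupied members, the 5 strongest unoccupied, members with no pooled peak or several peaks, stalk, 5S and paralogue genes, and up to 3 of each other list; others were chosen after their values were seen. Some genes that the rule names are not reported here, though they stay in the counts. Rps4l, on the paralogue list, is not a protein-coding gene of the annotation. Intervals are at 95% and cover counting error only (statsmodels 0.14.6, Python 3.11.15). The scripts for positions and the core were tested on simulated data. Alternatives were other IDR sets, strengths, single libraries (as many of the strongest peaks as the optimal set holds), promoter widths, start sites and limits for the core.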

Additional observations from a re-analysis of the deposited data

How the results depend on the processing

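The share of occupied members stayed within its interval in the conservative set, at 500 bp, with the 5′ end only, without the 7 paralogues and above the CpG ratio. Without replicate 1 or 2 it was 65.5% and 64.3%, and 50 of the 52 members were kept in each. It moved to 39.3% with the 31343 strongest peaks, to 75.0% at 2.5 kb and to 13.1% with the 5000 strongest, a limit added after seeing the data, as were the settings on paralogues and CpG ratio. The large minus small difference in occupancy changed sign with the 31343 strongest peaks (2.88 points; the cause was not tested) and ran from -7.21 to -5.29 without a replicate. The difference in median signal was 49.4, 19.7 in the conservative set, 6.38 to 22.7 without a replicate and 1.53 over members with a pooled peak. The core share became 12.7% at 1 mismatch, 63.4% at 3 and 58.3% with the 31343 strongest peaks, and 36.8% to 38.0% without a replicate. Repeat within the strongest of both libraries fell to 73.2% by 50% reciprocal overlap, and to 73.2% by summits within 50 bp. By these stricter rules the share over all peaks at coding promoters was not counted. No paired analysis was possible because there is 1 group. Depth is unknown, so weak peaks cannot be weighed by read number.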
